A study of Mus musculus with 45 samples.

Results

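The 34 Hox cluster genes in the deposited table were described here across retinoic acid (RA) and BMP4 treatment of differentiating mouse embryonic stem cells (mESCs). They are the rows whose symbol is Hox, a cluster letter from a to d and a number, 34 of 11220 genes. The HoxA cluster (chromosome 6) gave 10, HoxB (chromosome 11) 10, HoxC (chromosome 15) 6 and HoxD (chromosome 2) 8. By paralog number, 15 belong to groups 1 to 5, 12 to groups 6 to 9 and 7 to groups 10 to 13. GENCODE M21 annotates 39 such genes, of which 5 were not analysed here.

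RNA was sequenced in bulk from 45 cultures in 15 groups of 3, which per the design text came from 3 independent differentiations. The D3 group is the neuromesodermal progenitor stage, reached with basic FGF and the WNT activator CHIR, and D0 is the undifferentiated line. From day 3, the M groups received 100 nM RA together with 10 ng/ml BMP4 for 48 h, the B groups RA for 24 h followed by RA with BMP4 for 24 h, and the R groups RA alone for 48 h. All M, B and R cultures therefore passed through the D3 stage, and all received RA. M and R were sampled on days 4, 5, 7 and 9 (M4 to M9, R4 to R9) and B on days 5, 7 and 9 (B5, B7, B9). B6hr and R6hr were taken 6 h into the second 24 h. M differs from B in the start of BMP4 and in its duration, which cannot be told apart. The labels state when RA was given in 2 versions 1 day apart, so days follow the titles. Values are the authors' normalized levels, whose unit is not stated, so levels are compared for 1 gene between groups and not between genes.

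Hox genes encode homeodomain transcription factors that give cells along the head-to-tail axis their regional identity. In each cluster the low-numbered genes lie at the 3′ end, come on early and mark the hindbrain and neck, and the high-numbered genes at the 5′ end come on later and mark the trunk, the lumbosacral region and the tail. WNT and FGF act on the clusters partly through CDX factors, and RA acts through receptors bound at enhancers in and beside the 3′ part. Paralogs, the genes with the same number in different clusters, have closely related proteins and often overlapping roles.

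The HoxD genes Hoxd4, Hoxd8 and Hoxd9 are shown by the sequence before their starts, because the change with RA and BMP4 together on day 5 turned from lower to higher between Hoxd8 and Hoxd9, whose 3′ ends lie close together in the cluster. Each line holds the 250 bases before the RefSeq start of the gene on GRCm38.p6, 5′ to 3′ on the strand of the gene. Capitals mark AGGTCA or its complement, the core hexamer bound by RA receptors and many other nuclear receptors.
Hoxd4, chr2:74721728-74721977 (+): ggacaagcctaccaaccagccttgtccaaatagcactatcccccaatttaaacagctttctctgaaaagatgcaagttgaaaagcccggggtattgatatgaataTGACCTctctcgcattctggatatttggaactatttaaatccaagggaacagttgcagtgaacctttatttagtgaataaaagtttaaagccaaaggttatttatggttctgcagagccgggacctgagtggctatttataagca
Hoxd8, chr2:74704365-74704614 (+): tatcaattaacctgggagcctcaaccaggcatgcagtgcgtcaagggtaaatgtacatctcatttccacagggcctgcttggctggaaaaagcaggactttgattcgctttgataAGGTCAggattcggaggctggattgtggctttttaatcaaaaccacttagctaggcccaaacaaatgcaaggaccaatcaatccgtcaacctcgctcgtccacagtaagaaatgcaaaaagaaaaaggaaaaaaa
Hoxd9, chr2:74697513-74697762 (+): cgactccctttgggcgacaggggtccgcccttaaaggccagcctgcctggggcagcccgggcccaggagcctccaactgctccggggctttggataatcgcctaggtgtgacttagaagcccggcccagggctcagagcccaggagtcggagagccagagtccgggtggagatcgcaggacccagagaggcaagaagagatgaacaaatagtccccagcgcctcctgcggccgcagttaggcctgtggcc
The hexamer began 145 bases before the start of Hoxd4 and 135 bases before that of Hoxd8, and these letters were not in the Hoxd9 window. Of the 22 RefSeq promoter windows found for 20 members, 6 held it on either strand (27.3%), against 14% of 32851 mouse promoters of the same length. The windows of Hoxd3, Hoxd10, Hoxb4 and Hoxc4 were the other 4. TTTATG, recognised by CDX factors, was in 5 of 22 windows (22.7%) against 10.8% of all promoters. TGACAG, recognised by the TALE cofactors, was in 2 (9.09%) against 15.9%. GGCGCC, a GC-rich SMAD motif, was in 5 (22.7%) against 9.59%, and TGATNNAT, a joint PBX and HOX motif, was in 4 (18.2%) against 7.68%. A match describes letters and not a bound site.

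Summed over the table, levels ranged by library between 12245699 and 15868715, and the read depth behind a value is unknown. The authors' table holds only genes that reached a false discovery rate below 0.1 somewhere in its 12 comparisons of treated groups, so shares of called genes here are not those of a whole transcriptome. Genes that differ between treated groups, M groups among them, were therefore more likely to be listed. Of 27 members of groups 1 to 9, all 27 were lowest in their group in M4 replicate 2, M5 replicate 1, M7 replicate 1 and B7 replicate 1, and all 27 were highest in M5 replicate 3. Similar shifts touched 26 members in B5 replicate 3 and B9 replicate 1 (highest), and 25 in R5 replicate 3, B7 replicate 3 and R9 replicate 2 (highest) and in R7 replicate 3 and R9 replicate 3 (lowest). The members therefore share much of their spread between libraries, and their calls are not independent of each other. In bulk RNA, fewer cells of a type and less RNA per cell cannot be told apart. Exons of 9 members are shared with another gene on the same strand and those of 9 are overlapped by an antisense gene, 15 with either. The counting is not stated to use strand. The pairs Hoxd3 with Hoxd4 and Hoxc5 with Hoxc10 share an exon, so reads could be split between them.

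**Figure D1:**
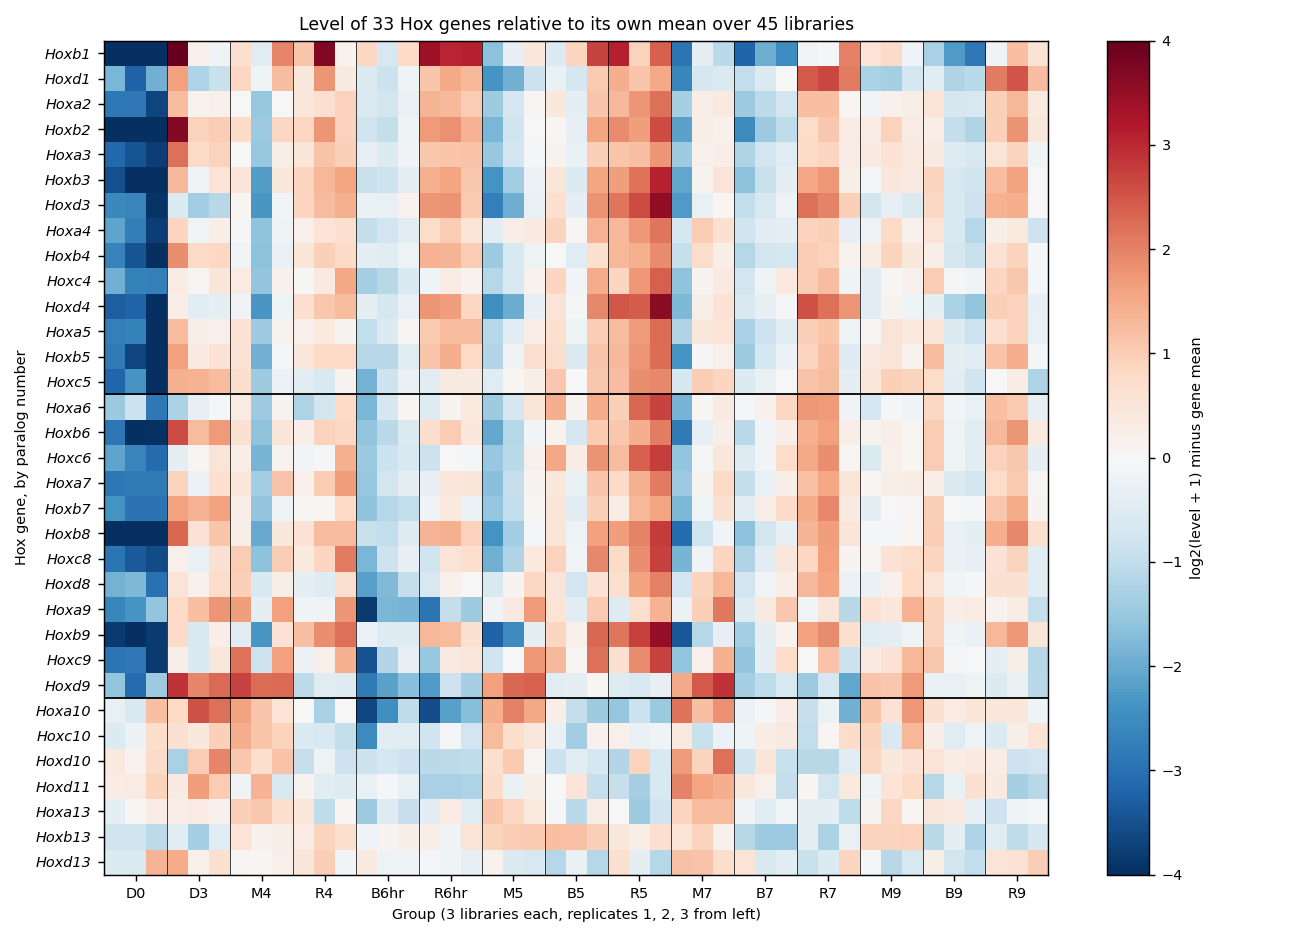
Level of each of 33 Hox genes (rows, by paralog number, lines above groups 6 and 10) in each of 45 libraries (columns, 3 for each group), as log2(level + 1) minus the gene's own mean over all libraries. D0 is low in the rows of groups 1 to 9, R5 is high in most of them, and the rows of groups 10 to 13 and Hoxd9 follow another order.

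In D3 progenitors nearly all members of paralog groups 1 to 9 were higher than in undifferentiated D0 cells. A member is called here when its limma p-value, adjusted by Benjamini-Hochberg over all 11220 genes, is under 0.05. Of the 34 members 27 were called higher in D3 and 0 lower, and the median log2 change of level + 1 was 3.45, against 0.07 over all genes, of which 30.9% were called higher and 24% lower. By group, 15 of 15 members of groups 1 to 5, 11 of 12 of groups 6 to 9 and 1 of 7 of groups 10 to 13 were higher. The exception in groups 6 to 9 was Hoxa6 (1.18 ± 0.68, SE, adjusted p = 0.14).

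Hoxd9, a gene of the lumbosacral cord and the limb bud (chr2:74697727-74700208 on mm10, plus strand), had 564, 295 and 371 in D3, against 24.4, 8.04 and 27.2 in D0. Hoxa3, which patterns the pharyngeal arches and the neck (chr6:52169062-52213336, minus strand), had 5089, 1901 and 2086 in D3, against 125, 101 and 80.2 in D0. Hoxb4, a cervical gene (chr11:96318267-96321638, plus strand), had 2970, 1405 and 1470 in D3, against 127, 73.4 and 46.8 in D0. In all 3 the lowest D3 library was above the highest D0 library. Their changes were 4.41 ± 0.40 (adjusted p = 5.4e-11), 4.75 ± 0.43 (6.1e-11) and 4.57 ± 0.42 (6.5e-11) on the log2 scale (SE, limma). Hoxa10, the lumbar gene next to Hoxa9, was the only called member of groups 10 to 13, with 92, 310 and 245 in D3 against 42.6, 34.2 and 123 in D0 (1.74 ± 0.57, adjusted p = 0.0098). Its groups overlapped, and the call was lost without D0 replicate 2 or D3 replicate 2.

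Replicate 1 of D3 stood apart for Hoxb1. This gene of rhombomere 4 of the hindbrain (chr11:96365752-96368256, plus strand), had 43643 in D3 replicate 1 and 606 and 477 in the other D3 libraries, against 4.15, 5.75 and 14.4 in D0. All D3 libraries lay above all D0 libraries. The summed level of 8 caudal progenitor markers was 60117 in the same D3 library and 10482 and 10570 in the others. The part of that difference in the Hox values was not tested. Without D3 replicate 1, 26 members were higher, and Hoxd1 (2.16 ± 0.58) was the member that lost its call.

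After 1 day of RA alone, few members passed the test against D3, and Hoxd9 and Hoxa10 were among the lower ones. R4 against D3 gave 2 members higher and 4 lower, against 11.7% and 12.6% of all genes, and the median change was -0.31. Hoxd9 had 36.3, 54.3 and 52.1 in R4, against 564, 295 and 371 in D3. Hoxa10 had 52.9, 20.6 and 51.5 in R4, against 92, 310 and 245 in D3. For both genes every R4 library lay below every D3 library. The changes were -3.05 ± 0.40 (adjusted p = 6.6e-07) for Hoxd9 and -2.29 ± 0.57 (adjusted p = 0.0031) for Hoxa10. Hoxc5 (-1.66 ± 0.53, adjusted p = 0.02) and Hoxc10 (-1.36 ± 0.50, adjusted p = 0.046), which share an exon, were the other lower members. Hoxc5 had 528, 471 and 776 in R4, against 1911, 1881 and 1712 in D3.

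The 2 higher members were Hoxd3 and Hoxb13. Hoxd3, a hindbrain and neck gene (chr2:74711927-74748442, plus strand), had 911, 1189 and 1338 in R4, against 338, 188 and 231 in D3 (2.20 ± 0.64, adjusted p = 0.0099). Hoxb13, the tail-end gene of HoxB (chr11:96194316-96197447, plus strand), had 30, 44.6 and 36.7 in R4, against 16.8, 8.64 and 16.6 in D3 (1.38 ± 0.26, adjusted p = 0.00018). The groups of both genes were apart. Without D3 replicate 2 the count was 3 of 34, with Hoxd3, Hoxc5 and Hoxc10 no longer called. Hoxc5 also lost its call without R4 replicate 1 or R4 replicate 2, and Hoxc10 without any 1 of the 6 libraries.

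After a second day of RA alone, 4 members were higher and 0 lower in R5 than in R4, with 7.09% and 5.66% of all genes called higher and lower. The members' median change was 0.83, and 29 of 34 changes were above 0. Hoxc5 had 1689, 2589 and 2728 in R5, against 528, 471 and 776 in R4 (1.98 ± 0.53, adjusted p = 0.013). Hoxa6 had 141, 356 and 468 in R5, against 29.7, 42.8 and 125 in R4 (2.38 ± 0.68, adjusted p = 0.019). Hoxd4 had 3229, 3112 and 7052 in R5, against 914, 1216 and 1395 in R4 (1.84 ± 0.59, adjusted p = 0.037). R5 lay above R4 in all libraries of these 3 genes. Hoxa5, a neck and lung gene, was the fourth (1.50 ± 0.51, adjusted p = 0.046). The count was 0 without R4 replicate 1, R4 replicate 2 or R5 replicate 3, and 1 without R5 replicate 2.

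By day 9 of the RA-alone course 9 members were lower and 1 higher in R9 than in R5, against 21.5% and 17.7% of all genes. Hoxb13 had 16.5, 11 and 13.9 in R9, against 32.4, 28.5 and 37.9 in R5 (-1.21 ± 0.26, adjusted p = 0.00061). Hoxd4 had 1122, 1099 and 463 in R9, against 3229, 3112 and 7052 in R5 (-2.32 ± 0.59, adjusted p = 0.0026). Hoxa4, a hindbrain and neck gene, had 224, 251 and 107 in R9, against 476, 639 and 852 in R5 (-1.80 ± 0.48, adjusted p = 0.0033). These groups did not overlap. Hoxa10 was the higher member, with 71.7, 72.2 and 46.4 in R9 and 17.5, 28.8 and 18.1 in R5 (1.53 ± 0.57, adjusted p = 0.032). The count of 10 was 6 without R5 replicate 2, 4 without R5 replicate 3, 6 without R9 replicate 1 and 5 without R9 replicate 3. Of 8 pluripotent markers, 7 were higher in R9 (sum 12122 to 19004, against 7099 to 7298 in R5), and of 8 paraxial mesoderm markers 4 were lower and 1 higher (sum 1625 to 1797 in R9, against 6895 to 9525 in R5). Their part in the Hox values was not tested.

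With RA and BMP4 together, Hoxd9 on day 4 was higher than with RA alone. It had 497, 358 and 367 in M4, against 36.3, 54.3 and 52.1 in R4, and the D3 libraries had 564, 295 and 371. Every M4 library was above every R4 library (3.08 ± 0.40, adjusted p = 2e-06), and all lay within the range of D3. In all, 3 members were higher in M4 than in R4 and 5 lower, against 6.76% and 7.37% of all genes, with a median of -0.81. The other higher members were the lumbar genes Hoxc10, with 30.5, 23.9 and 20.5 in M4 against 6.88, 6.52 and 4.96 in R4 (1.86 ± 0.50, adjusted p = 0.011), and Hoxd10, with 7.69, 5.46 and 7.99 in M4 against 1.19, 2.55 and 1.32 in R4 (1.60 ± 0.52, adjusted p = 0.034). Both gave groups that did not overlap, at levels where the pseudocount of 1 shrinks a fold change. Hoxd10 lost its call in 8 of 14 alternatives, the authors' deposited test among them, and Hoxc10 in 1 of 14.

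The 5 lower members in M4 came from groups 3, 4 and 9. Hoxb9, a thoracic gene (chr11:96271457-96276595, plus strand), had 4948, 1356 and 10115 in M4, against 15620, 24617 and 31698 in R4 (-2.50 ± 0.68, adjusted p = 0.011). Hoxb4 had 760, 265 and 685 in M4, against 1153, 1600 and 1404 in R4 (-1.41 ± 0.42, adjusted p = 0.02). Hoxd4 had 518, 113 and 513 in M4, against 914, 1216 and 1395 in R4 (-1.89 ± 0.59, adjusted p = 0.028). M4 lay below R4 throughout, and M4 replicate 2 was the lowest library for each. Hoxa3 and Hoxd3 were the others. The count of 8 was 2 without M4 replicate 2 and 2 without R4 replicate 3, with 0 lower members in both cases, and 4 without R4 replicate 2. It was also 2 with the compared libraries fitted alone. Of the marker lists, 7 of 9 lateral mesoderm genes were higher in M4 (sum 11180 to 18689, against 1189 to 2224 in R4) and 8 of 8 neural progenitor genes lower (sum 3085 to 5856 in M4, against 18242 to 22898 in R4), whose part in the Hox values was not tested.

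On day 5, RA with BMP4 for 48 h gave lower levels of all members of groups 1 to 8 than RA alone, and higher levels of several members of groups 9 to 13. M5 against R5 gave 24 members lower and 4 higher, against 23.3% and 21% of all genes. The members' median change was -2.15, against -0.02 over all genes. In groups 1 to 5, 15 of 15 were lower. In groups 6 to 9, 9 of 12 were lower and 1 higher, and in groups 10 to 13, 0 of 7 were lower and 3 higher. For 29 of the 34 members the 3 M5 and 3 R5 libraries did not overlap, against 55.4% of all genes.

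Hoxd4, whose neural expression depends on RA (chr2:74711929-74729160, plus strand), had 105, 146 and 460 in M5, against 3229, 3112 and 7052 in R5 (-4.43 ± 0.59, adjusted p = 4.2e-07). Hoxb9 had 732, 1162 and 5198 in M5, against 30327, 45616 and 78183 in R5 (-4.86 ± 0.68, adjusted p = 8.4e-07). Hoxd3 had 74.5, 127 and 408 in M5, against 2222, 3060 and 5875 in R5 (-4.43 ± 0.64, adjusted p = 1.3e-06). In all 3 genes the highest M5 library, replicate 3, stayed well below the lowest R5 library. Because Hoxd3 and Hoxd4 share an exon and are overlapped by the antisense RNA Hoxd3os1, their values are not separate measurements.

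In the other direction, Hoxd9 had 240, 379 and 394 in M5, against 52.4, 48 and 59.6 in R5 (2.61 ± 0.40, adjusted p = 3.4e-06). Hoxa10 (chr6:52231197-52240854, minus strand) had 146, 214 and 156 in M5, against 17.5, 28.8 and 18.1 in R5 (2.96 ± 0.57, adjusted p = 8.6e-05). Hoxa13, the limb and hindgut gene at the 5′ end of HoxA (chr6:52257694-52260880, minus strand), had 17.1, 13.7 and 9.81 in M5, against 7.49, 2.09 and 3.79 in R5 (1.51 ± 0.38, adjusted p = 0.0016). M5 was above R5 in every library of these 3 genes. Hoxd11 was the fourth higher member (1.19 ± 0.49, adjusted p = 0.049), and it lost its call in 10 of 13 alternatives.

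**Figure D2:**
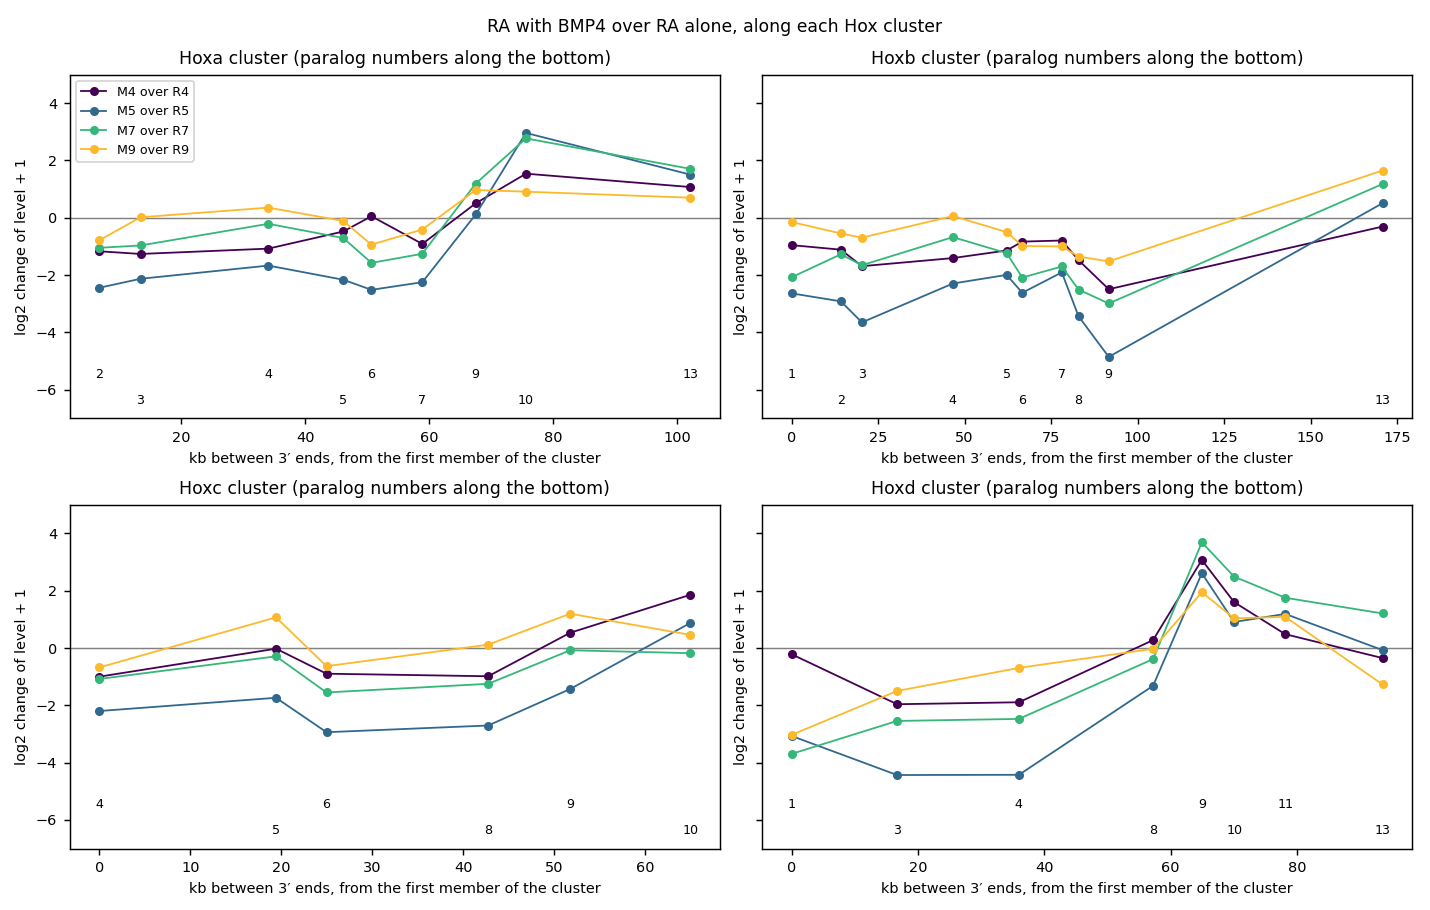
Log2 change of level + 1 of the M groups over the R groups on days 4, 5, 7 and 9, for each Hox cluster, against the distance in kb between the 3′ end of each gene and that of the first member of the cluster. On day 5 the HoxD line passes from -1.32 at Hoxd8 to 2.61 at Hoxd9, the HoxA line from -2.25 at Hoxa7 to 2.96 at Hoxa10, and the HoxB line is at -4.86 at Hoxb9.

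Called changes of both signs were found in HoxA and HoxD. In HoxD the sign changed between Hoxd8 (-1.32 ± 0.54, adjusted p = 0.044; chr2:74704615-74707933) and its 5′ neighbour Hoxd9 (2.61). In HoxA, Hoxa2 to Hoxa7 were lower by 1.67 to 2.52, Hoxa9 was at 0.12 ± 0.68 and was not called, and Hoxa10 was at 2.96. In HoxB, all of Hoxb1 to Hoxb9 were lower, Hoxb9 the most, and Hoxb13 was at 0.51 ± 0.26 (adjusted p = 0.12). In HoxC, Hoxc4 to Hoxc8 were lower, Hoxc9 was at -1.43 ± 0.84 (adjusted p = 0.17) and Hoxc10 at 0.88 ± 0.50 (adjusted p = 0.16). The members of paralog group 9 thus ranged from -4.86 at Hoxb9 to 2.61 at Hoxd9 within the same libraries. Leaving out 1 library gave 24 to 27 calls. Hoxd8 was not called without R5 replicate 2, R5 replicate 3, M5 replicate 1 or M5 replicate 2, Hoxb5 without M5 replicate 1, and Hoxb1 without R5 replicate 1, R5 replicate 3, M5 replicate 1 or M5 replicate 2.

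Marker sums differed with the Hox values on day 5. All 9 lateral mesoderm markers were higher in M5 than in R5 and their sum was 20144 to 25276 in M5, against 1104 to 1994 in R5. All 8 neural progenitor markers were lower, with a sum of 2333 to 4744 in M5, against 26512 to 42001 in R5. No level of any gene was at 0 in any library, so a level above 0 does not show that a marker was expressed. The part of these marker differences in the Hox changes was not tested.

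BMP4 given in the second day only (B5) gave 3 members lower and 0 higher than R5, against 3.23% and 2.76% of all genes. The median was -0.96, with 29 of 34 changes below 0. Hoxb4 had 815, 582 and 1316 in B5, against 2076, 2209 and 3036 in R5 (-1.49 ± 0.42, adjusted p = 0.029). Hoxd4 had 823, 541 and 2187 in B5, against 3229, 3112 and 7052 in R5 (-2.06 ± 0.59, adjusted p = 0.033). Hoxd3 had 791, 380 and 1748 in B5, against 2222, 3060 and 5875 in R5 (-2.08 ± 0.64, adjusted p = 0.045). The groups were apart for each, with B5 replicate 3 nearest to R5. The count was 0 without R5 replicate 2, R5 replicate 3, B5 replicate 1 or B5 replicate 2, 5 without B5 replicate 3, and 0 with the compared libraries fitted alone. Hoxd9 (0.24 ± 0.40) and Hoxa10 (0.58 ± 0.57) were not called: Hoxd9 had 54.9, 57.2 and 79.6 in B5, against 52.4, 48 and 59.6 in R5, and the groups overlapped.

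The direct comparison of the BMP4 schedules, M5 against B5, gave 3 members higher and 6 lower, against 8.57% and 9.23% of all genes. Hoxd9 had 240, 379 and 394 in M5, against 54.9, 57.2 and 79.6 in B5 (2.37 ± 0.40, adjusted p = 6.8e-05). Hoxa10 had 146, 214 and 156 in M5, against 62.7, 26.5 and 19.2 in B5 (2.38 ± 0.57, adjusted p = 0.0033), and Hoxa13 was higher by 1.06 ± 0.38 (adjusted p = 0.047). Each M5 library lay above each B5 library for these genes. Hoxa13 lost its call in 10 of 14 alternatives, the authors' deposited test among them, and Hoxd9 and Hoxa10 in 0. The lower members were Hoxb9 (-3.18 ± 0.68, adjusted p = 0.0011), Hoxd4 (-2.37 ± 0.59), Hoxd3 (-2.35 ± 0.64), Hoxc6 (-2.02 ± 0.60), Hoxb8 (-1.92 ± 0.63) and Hoxd1 (-1.74 ± 0.58). Hoxb9 had 732, 1162 and 5198 in M5, against 12435, 7799 and 33764 in B5, with no overlap. The count of 9 was 4 without B5 replicate 3, 3 without M5 replicate 1, 5 without M5 replicate 2 and 15 without M5 replicate 3. It was 2 with the compared libraries fitted alone.

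The earliest samples under BMP4 of the B schedule were taken 6 h after its addition. In the fit of all 45 libraries B6hr against R6hr gave 0 members called (30 of 34 changes below 0, median -1.44), and of all genes 0% were called higher and 0.0178% lower. No label pairs these libraries, and the replicate numbers were taken as pairs from the values themselves. Deviations from the group means correlated at 0.59, 0.19 and 0.46 within numbers and at most 0.15 between numbers. The blocked calls rest on this inferred pairing. In the 6 libraries alone with a replicate block, 26 members were lower and 0 higher, against 15.3% and 10.6% of all genes. By group these were 15 of 15 in groups 1 to 5, 11 of 12 in groups 6 to 9 and 0 of 7 in groups 10 to 13, with medians of -1.69, -1.18 and 0.10. The authors' deposited test gave 2 members lower and 0 higher, at a false discovery rate under 0.05.

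Hoxb1 had 940, 343 and 930 in B6hr, against 5602, 4398 and 4630 in R6hr (-2.86 ± 0.31, blocked adjusted p = 0.0088). Hoxb4 had 641, 593 and 721 in B6hr, against 2172, 2119 and 1646 in R6hr (-1.60 ± 0.13, blocked adjusted p = 0.00064). Hoxa2, the Hox gene of rhombomere 2, had 242, 214 and 294 in B6hr, against 920, 878 and 730 in R6hr (-1.75 ± 0.14, blocked adjusted p = 0.00038). B6hr lay below R6hr in all libraries of these genes, which were 3 of 23 members with groups that did not overlap, against 31.6% of all genes. Hoxd9 was the member of groups 6 to 9 that was not called, with 9.68, 16.2 and 23.1 in B6hr against 15, 42.1 and 29.5 in R6hr (-0.75 ± 0.32, blocked adjusted p = 0.11).

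**Figure D3:**
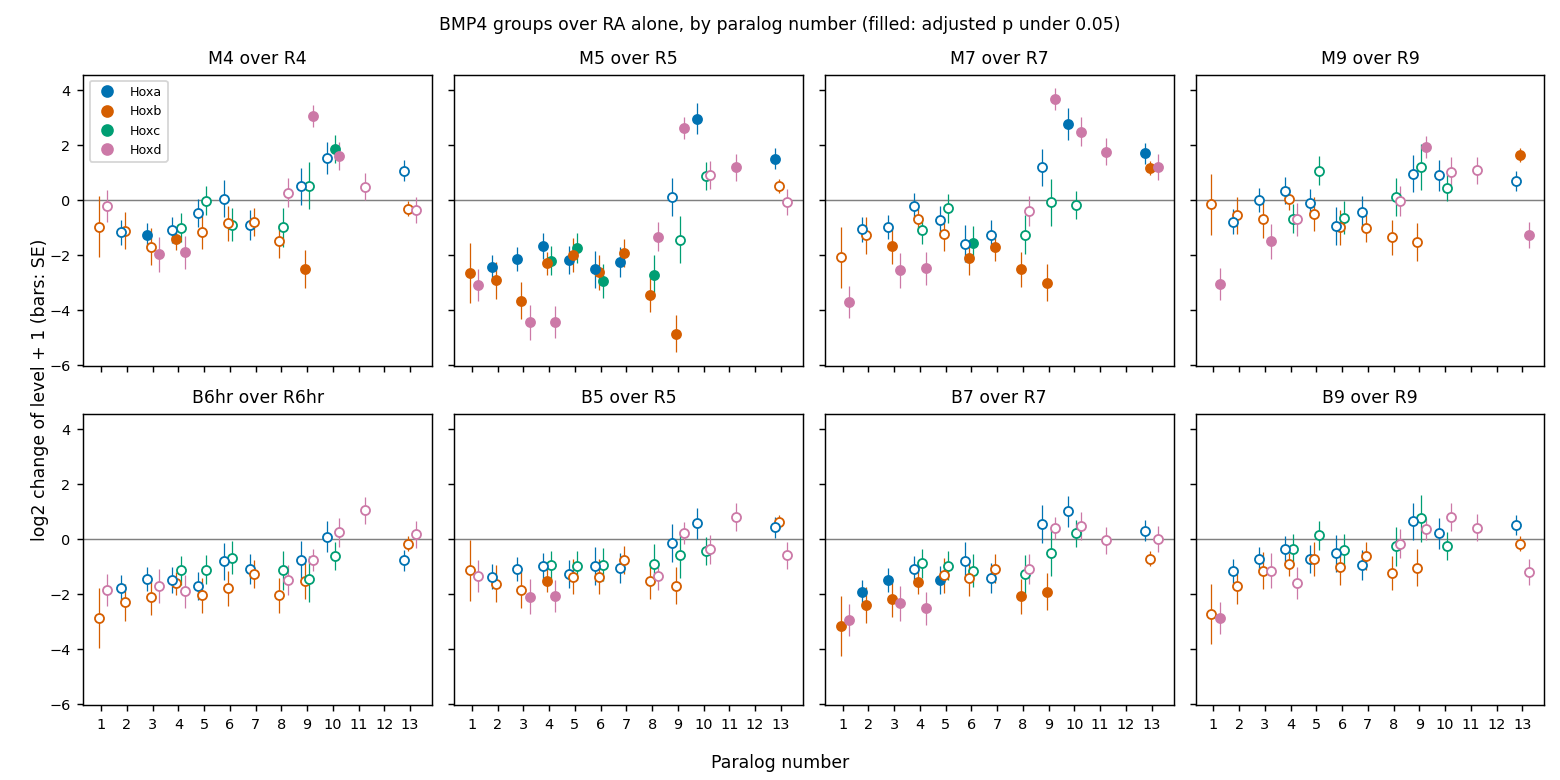
Log2 change of level + 1 (points, bars are SE) of 33 members by paralog number, coloured by cluster, for M over R (upper row, days 4, 5, 7 and 9) and B over R (lower row, 6 h and days 5, 7 and 9). Filled points have an adjusted p under 0.05 in the fit of all libraries. In M over R the points of groups 9 to 13 reach 3.69 at Hoxd9 on day 7, and in B over R the points of groups 1 to 5 lie below 0 in each panel, except Hoxc5 in B9 over R9.

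On day 7 all 15 members of groups 1 to 5 had changes below 0 in both B7 and M7 against R7, with 11 and 4 called. In M7, 6 of the 7 members of groups 10 to 13 were called higher than in R7. B7 against R7 gave 13 members lower and 0 higher, against 11.6% and 12.1% of all genes: 11 of 15 in groups 1 to 5, 2 of 12 in groups 6 to 9 and 0 of 7 in groups 10 to 13. Hoxd1, which in mouse acts in pain-sensing neurons (chr2:74762980-74765142, plus strand), had 76.5, 104 and 156 in B7, against 855, 985 and 650 in R7 (-2.92 ± 0.58, adjusted p = 0.00074). Hoxa2 had 131, 173 and 214 in B7, against 822, 834 and 382 in R7 (-1.91 ± 0.45, adjusted p = 0.0034). Hoxd4 had 377, 459 and 541 in B7, against 3348, 2630 and 1937 in R7 (-2.50 ± 0.59, adjusted p = 0.0035). B7 and R7 did not overlap for these genes. Without B7 replicate 1 the count was 5, and the summed level of 8 neuron markers was 38014 to 50063 in B7, against 4864 to 15742 in R7, whose part in the Hox values was not tested.

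M7 against R7 gave 7 members higher and 9 lower, against 22.9% and 20.6% of all genes. The higher ones were Hoxd9 and 6 of the 7 members of groups 10 to 13, all but Hoxc10 (-0.18 ± 0.50). Hoxd9 had 218, 416 and 568 in M7, against 27, 46 and 17.3 in R7 (3.69 ± 0.40, adjusted p = 7.1e-09). Hoxa10 had 243, 124 and 190 in M7, against 27.3, 44.5 and 13.1 in R7 (2.77 ± 0.57, adjusted p = 0.00019). Hoxd10, a lumbar and limb gene, had 12.5, 6.62 and 18 in M7, against 0.912, 0.891 and 2.04 in R7 (2.49 ± 0.52, adjusted p = 0.00022). M7 lay above R7 in each. Hoxd11 (1.76 ± 0.49), Hoxa13 (1.71 ± 0.38), Hoxd13 (1.21 ± 0.48) and Hoxb13 (1.18 ± 0.26) were the others, and Hoxd13 lost its call in 7 of 13 alternatives. The lateral mesoderm markers summed to 11189 to 17310 in M7, against 710.1 to 1023 in R7, and the neural progenitor markers to 4088 to 7194 in M7, against 27385 to 33130 in R7. Their part in the Hox values was not tested.

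The 9 lower members in M7 were Hoxd1, Hoxb3, Hoxd3, Hoxd4, Hoxb6, Hoxc6, Hoxb7, Hoxb8 and Hoxb9. Hoxd1 had 24.2, 95.4 and 103 in M7, against 855, 985 and 650 in R7 (-3.70 ± 0.58, adjusted p = 5e-06). Hoxb9 had 647, 3077 and 5485 in M7, against 20708, 25150 and 10588 in R7 (-2.99 ± 0.68, adjusted p = 0.00057). Hoxd4 had 166, 693 and 860 in M7, against 3348, 2630 and 1937 in R7 (-2.47 ± 0.59, adjusted p = 0.001). In each, M7 was below R7, with M7 replicate 1 lowest. With this library left out the count was 11 of 34.

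The BMP4 schedules also differed on day 7, mainly in members of groups 9 to 13. M7 against B7 gave 8 members higher and 0 lower, against 21.7% and 19.9% of all genes. Hoxd9 had 218, 416 and 568 in M7, against 29.4, 36.8 and 48.4 in B7 (3.28 ± 0.40, adjusted p = 1.2e-07). Hoxb13 had 34.4, 45.2 and 26.5 in M7, against 10.4, 8.13 and 7.89 in B7 (1.87 ± 0.26, adjusted p = 1.3e-06). Hoxd10 had 12.5, 6.62 and 18 in M7, against 1.39, 4.71 and 1.24 in B7 (2.00 ± 0.52, adjusted p = 0.0027). All M7 libraries were above all B7 libraries in these genes. Hoxa10, Hoxa13, Hoxd11 and Hoxd13 were also higher.

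On day 9 the clearest differences between RA with BMP4 and RA alone were in Hoxb13, Hoxd9 and Hoxd1. M9 against R9 gave 2 members higher and 3 lower, against 27.5% and 23.5% of all genes, with a median of -0.13. Hoxb13 had 44.7, 44.2 and 45.6 in M9, against 16.5, 11 and 13.9 in R9 (1.65 ± 0.26, adjusted p = 5.9e-06). Hoxd9 had 166, 160 and 250 in M9, against 51.6, 61.4 and 34.9 in R9 (1.95 ± 0.40, adjusted p = 0.00016). Hoxd1 had 62.7, 60.9 and 95.6 in M9, against 647, 878 and 365 in R9 (-3.03 ± 0.58, adjusted p = 7.5e-05). M9 and R9 did not overlap for these genes. Hoxd13 (-1.27 ± 0.48, adjusted p = 0.027) and Hoxd3 (-1.50 ± 0.64, adjusted p = 0.048) were the other lower members. Hoxd13 had 13.2, 5.8 and 8.43 in M9, against 19.8, 20.6 and 27.5 in R9. The count of 5 was 3 without M9 replicate 2 or M9 replicate 3, 13 with the compared libraries fitted alone and 12 with a replicate block added. The lateral mesoderm markers summed to 6250 to 11792 in M9, against 607.4 to 908.8 in R9, and the neural progenitor markers to 5410 to 5754 in M9, against 18781 to 22339 in R9. Their part in the Hox values was not tested.

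B9 against R9 gave 1 member lower and 0 higher, against 5.71% and 6.12% of all genes. The member was Hoxd1, with 112, 66.4 and 72.7 in B9 against 647, 878 and 365 in R9 (-2.85 ± 0.58, adjusted p = 0.0018), again with no overlap. The count of 1 was 3 with the compared libraries fitted alone or with quantile normalization, 9 with a replicate block added and 2 in the authors' deposited test. M9 against B9 gave 2 higher and 0 lower, against 27.8% and 23.7% of all genes. Hoxb13 had 44.7, 44.2 and 45.6 in M9, against 10.7, 17.9 and 9.41 in B9 (1.80 ± 0.26, adjusted p = 2.6e-06). Hoxd9 had 166, 160 and 250 in M9, against 61.9, 62 and 66.2 in B9 (1.56 ± 0.40, adjusted p = 0.0019). M9 was above B9 in all libraries of both genes. Without B9 replicate 1 the count for M9 against B9 was 4.

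**Figure D4:**
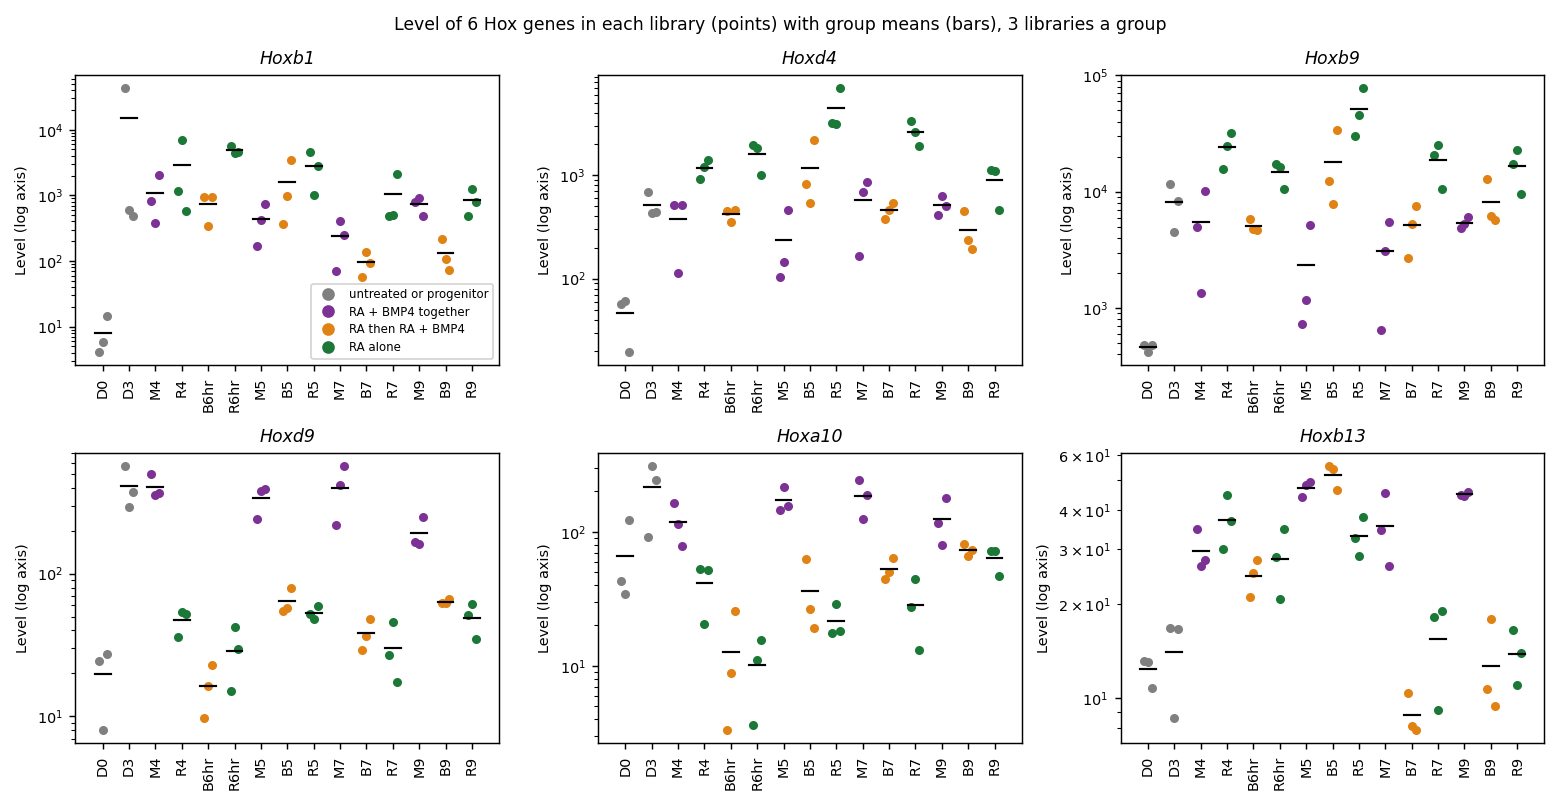
Level (log axis) of 6 Hox genes in every library (points) with the mean of the 3 libraries of each group (bars), in groups ordered by stage with M, B and R side by side. Hoxd9 stays between 160 and 568 in all 12 M libraries and at or below 79.6 in all B and R libraries, and Hoxd4 and Hoxb9 are highest in R5.

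Whether the effect of RA with BMP4 itself differed between days 9 and 5 was tested as the difference (M9 - R9) - (M5 - R5). It gave 14 members higher and 1 lower, against 21.9% and 17% of all genes, with a median of 1.75, against 0.09 over all genes. Of these, 10 were in groups 1 to 5. Hoxd4 was at -0.69 in M9 over R9 and -4.43 in M5 over R5, a difference of 3.73 ± 0.84 (adjusted p = 0.00082). Hoxb4 was at 0.06 in M9 over R9 and -2.30 in M5 over R5 (2.36 ± 0.59, adjusted p = 0.0022). Hoxc5 was at 1.07 in M9 over R9 and -1.74 in M5 over R5 (2.81 ± 0.75, adjusted p = 0.0039). Hoxa10 was the lower member (0.91 on day 9, 2.96 on day 5, difference -2.05 ± 0.80, adjusted p = 0.042). Hoxd9 (-0.66 ± 0.56) and Hoxd1 (0.04 ± 0.82) were not called. The count of 15 was 7 without M5 replicate 1, 8 without R9 replicate 3, 9 without R5 replicate 3 and 9 without M9 replicate 2. Hoxa10 was called in 3 of the 12 fits that left out 1 library.

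The same difference for the B schedule, (B9 - R9) - (B5 - R5), gave 0 members higher and 0 lower, against 1.19% and 0.918% of all genes. Within the B cultures, B9 against B5 gave 5 members lower and 0 higher, against 23.2% and 20.4%. Hoxb13 had 10.7, 17.9 and 9.41 in B9, against 55.3, 54.1 and 46.3 in B5 (-2.0 ± 0.26, adjusted p = 9.8e-07). Hoxd4 had 453, 238 and 193 in B9, against 823, 541 and 2187 in B5 (-1.85 ± 0.59, adjusted p = 0.012). Hoxb1 had 216, 109 and 71.7 in B9, against 366, 972 and 3493 in B5 (-3.16 ± 1.10, adjusted p = 0.02). B9 was below B5 in each. The count of 5 was 1 without B5 replicate 3, 3 without B9 replicate 2 and 1 without B9 replicate 3.

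Within the M cultures, M9 against M5 gave 2 members higher and 0 lower, against 14.4% and 11.4% of all genes. Hoxb4 had 999, 1514 and 1106 in M9, against 306, 535 and 714 in M5 (1.28 ± 0.42, adjusted p = 0.022). Hoxa3 had 1431, 1652 and 1453 in M9, against 385, 651 and 1070 in M5 (1.22 ± 0.43, adjusted p = 0.034). M9 lay above M5 for both. The count was 0 without M5 replicate 1 or M9 replicate 2, 1 without M5 replicate 2, M9 replicate 1 or M9 replicate 3, and 6 without M5 replicate 3.

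Across the 15 groups, the highest mean was in R5 for 18 members, in D3 for 8, in M7 for 4 and in R6hr, R7, M4 and B5 for 1 each. Without D3 replicate 1 the highest mean was in D3 for 3 members and in R5 for 21: Hoxb2, Hoxa3 and Hoxb6 then had it in R5, Hoxb1 in R6hr and Hoxd9 in M4. After day 3, the highest mean was in R5 for 21 members, none of them from groups 10 to 13. The 8 with their highest mean in an M group after day 3 were Hoxa9, Hoxd9 and Hoxc10 in M4 and Hoxa10, Hoxd10, Hoxd11, Hoxa13 and Hoxd13 in M7. The lowest mean was in D0 for all 15 members of groups 1 to 5 and for 10 of 12 of groups 6 to 9, and in D0 for 0 of 7 of groups 10 to 13. Neighbouring groups in these orders often overlapped, as with Hoxd9 in D3 (295 to 564) and M4 (358 to 497).

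The mean log2(level + 1) of the 7 members of groups 10 to 13 was 3.80 to 4.85 in the 12 M libraries, 2.36 to 3.56 in the 12 B libraries and 2.58 to 3.58 in the 15 R libraries. The M range lay above those of B and R. It overlapped the range of the 3 D3 libraries, 3.83 to 4.50, and that of the 3 D0 libraries, 3.31 to 4.17. These 7 members are listed because they passed a filter on differences between treated groups, some with M. The distance of M from B and R in this mean is therefore partly selected, and how far was not tested. For groups 1 to 5 the mean was 7.77 to 9.82 in M, 8.05 to 10.84 in B and 9.43 to 11.77 in R, and these ranges overlapped. Hoxb13 had an order of its own: it was highest in B5 (55.3, 54.1 and 46.3), stayed at 44.2 to 45.6 in M9, and was at 7.89 to 10.4 in B7.

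Of 28 listed neighbours and RNAs of the Hox clusters, 12 were in the table, and in M5 against R5, 2 were higher and 9 lower, against 21% and 23.3% of all genes (median -1.60, against -0.02 over all genes). Hoxaas3, an antisense RNA that overlaps exons of Hoxa3 and Hoxa7, averaged 49.1 in M5, against 1085 in R5 (-4.79 ± 0.90, adjusted p = 6.5e-05). Haglr, the RNA beside Hoxd1 whose exon overlaps Hoxd3, averaged 28.7 in M5, against 150.3 in R5 (-2.41 ± 0.52, adjusted p = 0.00039), and Hoxd3os1 3.56 in M5, against 28.9 in R5 (-2.75 ± 0.64, adjusted p = 0.00079). Evx1, the homeobox gene at the 5′ end of HoxA, averaged 33.2 in M5, against 5.68 in R5 (2.30 ± 0.62, adjusted p = 0.003). Evx1 also averaged 1857 in D3, against 28.2 in D0 (6.43 ± 0.62, adjusted p = 2e-10). The summed level of the 12 was 11885 in 1 D3 library and 5724 and 6095 in the others, so this D3 mean can lean on 1 library.

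The TALE cofactors of the MEIS, PBX and PKNOX families bind DNA together with Hox proteins, and 8 of 9 listed were in the table. In R4 against D3, 4 were higher and 2 lower, against 11.7% and 12.6% of all genes (median 1.03, against -0.01 over all genes). Meis1 averaged 6489 in R4, against 203.4 in D3 (4.96 ± 0.61, adjusted p = 2.1e-07), and Meis2 9660 in R4, against 1586 in D3 (2.63 ± 0.52, adjusted p = 0.00025). In M5 against R5, 1 was higher and 4 lower, against 21% and 23.3% of all genes (median -1.21, against -0.02 over all genes). Meis1 averaged 3691 in M5, against 13391 in R5 (-1.86 ± 0.61, adjusted p = 0.013), Meis2 was at -1.50 ± 0.52 (adjusted p = 0.018) and Pknox2 at -2.14 ± 0.41 (adjusted p = 7.7e-05). In M9 against R9, 3 were higher and 1 lower, against 27.5% and 23.5% of all genes (median 0.24, against 0.04 over all genes), with Meis2 at 1.70 ± 0.52 (adjusted p = 0.007).

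Of 19 listed regulators upstream of Hox genes, 18 were in the table. In D3 against D0, 10 were higher and 3 lower, against 30.9% and 24% of all genes (median 2.21, against 0.07 over all genes). The CDX factors were among the higher: Cdx2 averaged 4172 in D3, against 27.6 in D0 (7.00 ± 0.95, adjusted p = 1.8e-07), with Cdx1 at 5.29 ± 0.99 and Cdx4 at 4.88 ± 1.31. The summed level of the 18 was 96638 in 1 D3 library and 23128 and 26960 in the others, so a D3 mean can lean on 1 library. Wnt3a, a WNT ligand of the tail bud, was at 5.91 ± 0.56 (adjusted p = 1.7e-10) in D3 over D0 and at -5.22 ± 0.56 (adjusted p = 2e-08) in R4 over D3. In M5 against R5, 1 was higher and 7 lower, against 21% and 23.3% of all genes (median -1.17, against -0.02 over all genes). Rarb, an RA receptor that RA induces, averaged 831.6 in M5, against 5153 in R5 (-2.62 ± 0.71, adjusted p = 0.0031), and Cyp26a1, which degrades RA, 518.6 in M5, against 2127 in R5 (-2.03 ± 0.58, adjusted p = 0.005). Aldh1a2, which makes RA, was at -2.26 ± 0.46 (adjusted p = 0.00017). Rarg, another RA receptor, was the higher one, with 2409 in M5 against 568.2 in R5 (2.10 ± 0.31, adjusted p = 2e-06).

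Polycomb proteins keep silent Hox genes repressed and Trithorax proteins keep active ones on, and 16 of 20 listed genes were in the table. In D3 against D0, 2 were higher and 11 lower, against 30.9% and 24% of all genes (median -0.42, against 0.07 over all genes). Jarid2, a partner of Polycomb complex PRC2, averaged 3096 in D3, against 17077 in D0 (-2.46 ± 0.20, adjusted p = 4.3e-12), and Eed, a core subunit, 1272 in D3, against 3374 in D0 (-1.40 ± 0.18, adjusted p = 7.9e-08). In M5 against R5, 6 were higher and 5 lower, against 21% and 23.3% of all genes (median 0.07, against -0.02 over all genes). Jarid2 was at 1.56 ± 0.20 (adjusted p = 1.8e-07), the PRC2 enzyme Ezh2 at -0.43 ± 0.12 (adjusted p = 0.0033) and Bmi1, of PRC1, at -0.91 ± 0.20 (adjusted p = 0.00047).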

How the data were processed

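RNA was sequenced from 45 cultures, with 3 libraries in each of 15 groups taken from the titles. The protocol in the labels names a NuGEN mRNA kit and the NovaSeq, and Picard, edgeR and mm10 stand in the submitters' processing notes with no role or version. No aligner, counter or strand setting is named there. The authors deposited a normalized signal per gene and library with no unit, log2 fold changes, p-values and false discovery rates. They also deposited columns headed fpkm and a rank, each taken as a score and not used. Because these values are not counts, the planned count test was replaced by limma 3.58.1 (R 4.3.3) on log2(level + 1), with 1 coefficient a group over all 45 libraries, trended and robust moderation, two-sided tests and Benjamini-Hochberg adjustment over 11220 genes. The authors' log2 fold changes run as the first group named in a column over the second, so their sign was turned here. They and the authors' rates were used only for their deposited test.

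Nothing says which libraries came from the same differentiation, so p-values measure the spread between these libraries. Replicate numbers were taken as pairs where every same-numbered pair correlated above 0.1, which held only for B6hr with R6hr (0.59, 0.19 and 0.46). The members and gene lists were chosen with earlier results of these data known. In each comparison values per library are given for up to 3 called members in each direction with the smallest adjusted p and groups that do not overlap, and for some members of groups 1, 4, 5, 9 and 10. Values of other members were chosen after they were seen, and a few genes counted in the totals are not reported here by name. In simulated data made on M5 against R5 with 11220 genes, 100 were changed 2-fold and 100 were changed 4-fold. The test called 56% of those changed 2-fold and 86% of those changed 4-fold, and called 5 unchanged genes. The real M5 against R5 had 21% of genes called higher and 23.3% lower, and recovery at such shares was not tested. Recovery for the members, which share much of their spread between libraries, was not tested either. Alternatives were pseudocounts of 0.1 and 5, a filter of level 10 in 3 libraries, quantile normalization, a replicate block, fits of only the libraries compared, and leaving out each library. After seeing the data, more were added: the test the authors deposited, and both 6 h groups lacking replicate 1, which again gave 0 calls. The order of group means without D3 replicate 1 was added later still. Positions are from GENCODE M21 on mm10 and promoters from RefSeq on GRCm38.p6. Python 3.11.15 with pandas 2.3.3 read the tables, and matplotlib 3.10.9 drew the figures.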

Additional observations from a re-analysis of the deposited data

Results flagged for a closer look

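For 15 members the effect of RA with BMP4 over RA alone differed between day 9 and day 5, by limma's test of the difference itself (adjusted p under 0.05). The difference, day 9 minus day 5 on the log2 scale, was positive for 14. In HoxB it was 2.37 for Hoxb2, 2.96 for Hoxb3, 2.36 for Hoxb4, 3.33 for Hoxb9 and 1.14 for Hoxb13. In HoxD it was 2.93 for Hoxd3 and 3.73 for Hoxd4. In HoxC it was 2.81 for Hoxc5, 2.31 for Hoxc6 and 2.82 for Hoxc8. In HoxA it was 1.66 for Hoxa2, 2.15 for Hoxa3, 2.02 for Hoxa4 and 2.05 for Hoxa5, and the negative value was -2.05 for Hoxa10. The members share libraries, and M5 replicate 1 was the lowest of its group in all 27 members of groups 1 to 9.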

How the results depend on the processing

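Of 162 called pairs of a member and a comparison, 2240 values were computed under alternatives, of which 352 lost the call and 0 changed sign. The counts of called members for D3 against D0, M5 against R5 and (B9 - R9) - (B5 - R5) stayed within 1.5 times under every alternative run, and that for (M9 - R9) - (M5 - R5) under all but leaving out 1 library. With the compared libraries alone, the counts were 2 for M4 against R4, 19 for B6hr against R6hr, 0 for B5 against R5, 2 for M5 against B5, 10 for M7 against R7, 3 for B9 against R9, 13 for M9 against R9, 8 for M9 against B9 and 7 for M9 against M5. With the compared libraries alone and a replicate block, they were 1 for R4 against D3, 1 for M4 against R4, 0 for R5 against R4, 26 for B6hr against R6hr, 0 for B5 against R5, 15 for M5 against B5, 0 for B7 against R7, 4 for M7 against R7, 16 for M7 against B7, 9 for B9 against R9, 12 for M9 against R9, 4 for M9 against B9, 1 for R9 against R5 and 13 for M9 against M5. Except at 6 h the numbers were not taken as pairs, so the blocked libraries share only a number. The cause of these moves was not tested. Quantile normalization gave 3 for B9 against R9 and 4 for M9 against B9. The authors' deposited test gave 2 for B6hr against R6hr and 2 for B9 against R9.

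Leaving out 1 library gave 3 to 9 members for R4 against D3, 2 to 7 for M4 against R4, 0 to 6 for R5 against R4, 0 to 5 for B5 against R5, 3 to 15 for M5 against B5, 5 to 13 for B7 against R7, 3 to 7 for M9 against R9, 2 to 4 for M9 against B9, 4 to 15 for R9 against R5, 1 to 5 for B9 against B5, 0 to 6 for M9 against M5 and 7 to 17 for (M9 - R9) - (M5 - R5). The depth of each library is unknown, so no counting interval could be given, and members with levels near the pseudocount of 1, such as Hoxd10 and Hoxd11, have the least certain folds.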
